A study of Mus musculus with 8 samples.

Results

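The 10 genes described here encode proteins that bind microtubules or free tubulin, and they were chosen by name. They are Map2 and Mapt of the MAP2/tau family, Map1b of the MAP1 family, Dcx, Dclk1 and Dclk2 of the doublecortin family, and the stathmins Stmn1, Stmn2, Stmn3 and Stmn4. All 10 were found among 20512 named genes of the exon table and among 18655 named genes of the intron table. RNA came from F1-21.6, a line of mouse embryonic stem cells (ESC), and from neural progenitor cells (NPC) that were differentiated from this line. The line is a hybrid of the 129Sv and Cast/EiJ backgrounds and was kept on inactivated mouse embryonic fibroblasts in serum with leukaemia inhibitory factor. The NPC samples carry the same background and come from 1 clone, so they show that clone and not progenitors in general. Each cell type had 2 biological replicates, each made into 2 technical libraries of total RNA without ribosomal RNA. The labels do not say what separates the biological replicates, so the p-values below measure the spread between these samples only. Whether the authors' exon p-values counted technical libraries as replicates is not stated in the sources used here. Those p-values may thus rest in part on technical spread.

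Microtubules are hollow polymers of tubulin that grow and shrink at their ends. MAP2, tau and MAP1B bind along the polymer and stabilise it, MAP2 mainly in dendrites and tau mainly in axons of neurons. Doublecortin and the doublecortin-like kinases bind the microtubule wall through doublecortin domains, and doublecortin is a widely used marker of migrating neuroblasts and young neurons. Stathmins act the other way, since they hold tubulin dimers and favour shrinkage. Stathmin 1 is common in dividing cells, while stathmins 2, 3 and 4 are attached to membranes and best known from neurons.

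RefSeq start regions (build GRCm38.p6, 250 bases before the start, 5′ to 3′ on the gene's strand) were on hand for 6 of the 10 genes, namely Map2, Map1b, Dcx, Dclk1, Dclk2 and Stmn3. The 4 below are shown because Map2, Dcx and Dclk1 had the 3 largest exon increases and Map1b fell. Capitals mark CpG dinucleotides, the sites of DNA methylation in mammals.
Map2, chr1:66175079-66175328, plus strand: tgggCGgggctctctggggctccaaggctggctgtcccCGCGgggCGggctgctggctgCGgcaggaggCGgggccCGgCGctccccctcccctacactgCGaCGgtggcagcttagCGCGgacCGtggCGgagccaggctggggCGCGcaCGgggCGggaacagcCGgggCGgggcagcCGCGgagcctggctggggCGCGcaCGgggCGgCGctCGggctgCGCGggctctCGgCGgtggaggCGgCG
Dcx, chrX:143933220-143933469, minus strand: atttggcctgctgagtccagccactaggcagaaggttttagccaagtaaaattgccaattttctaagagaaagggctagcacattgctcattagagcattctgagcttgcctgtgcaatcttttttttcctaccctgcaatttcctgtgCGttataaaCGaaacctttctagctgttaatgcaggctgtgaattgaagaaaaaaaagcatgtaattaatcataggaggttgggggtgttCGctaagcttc
Dclk1, chr3:55242114-55242363, plus strand: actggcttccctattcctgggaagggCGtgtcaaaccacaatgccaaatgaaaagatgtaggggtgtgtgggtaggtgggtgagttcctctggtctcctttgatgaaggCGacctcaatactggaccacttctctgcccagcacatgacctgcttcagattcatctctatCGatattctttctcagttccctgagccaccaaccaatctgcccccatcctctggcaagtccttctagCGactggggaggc
Map1b, chr13:99516603-99516852, minus strand: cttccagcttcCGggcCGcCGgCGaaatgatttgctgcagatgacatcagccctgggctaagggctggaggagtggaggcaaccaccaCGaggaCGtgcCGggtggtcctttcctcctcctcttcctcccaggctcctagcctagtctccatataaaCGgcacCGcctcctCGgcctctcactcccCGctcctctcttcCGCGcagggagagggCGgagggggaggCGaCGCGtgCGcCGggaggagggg
The genes that rose did not share a base composition. Map2 had 34 CpG in its 250 bases, more than 96.5% of the 32851 regions in the table, whereas the Dcx region had 3 and the Dclk1 region 4, against a median of 6 over all regions. A second Dclk1 start held 4 CpG as well. The region of a second Dcx start shares 155 bases with the one shown, its 3 CpG included. Map1b had 19 CpG, Dclk2 21 and Stmn3 3. The TATA-box letters TATAAA, searched on both strands, occurred once in the stretch shared by the Dcx starts and in the Map1b region, and in 12.4% of all regions. The E-box letters CANNTG (palindromic, so both strands are covered) were in 66.2% of all regions, and in those of Dclk1, Map1b and Stmn3 but not of Map2, Dcx or Dclk2. Such matches describe the sequence only.

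Exon levels are the authors' RPKM values, in which reads are scaled to exon length and library size; each cell type has 1 pooled value and hence no replicate spread. Per length, Stmn2 led the 10 genes in ESC at 160 RPKM, followed by Stmn1 at 74.7, Map1b at 52.6, Stmn3 at 22.5, Dclk2 at 11.7 and Mapt at 9.58. Map2 was at 2.14 RPKM in ESC, Dclk1 at 0.632, Stmn4 at 0.131 and Dcx at 0.0639. In NPC the order differed. Map2 led at 371 RPKM, then came Stmn1 at 42.7, Dcx at 33.8, Map1b at 29.3, Dclk2 at 22.1, Dclk1 at 21.6 and Stmn3 at 8.42. Mapt was at 4.17 RPKM in NPC, Stmn2 at 0.792 and Stmn4 at 0.394. With no replicates on exons, neighbours in these orders cannot be said to differ. Stmn2 went from rank 1 in ESC to rank 9 in NPC, and Dcx from rank 10 to rank 3.

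**Figure D1:**
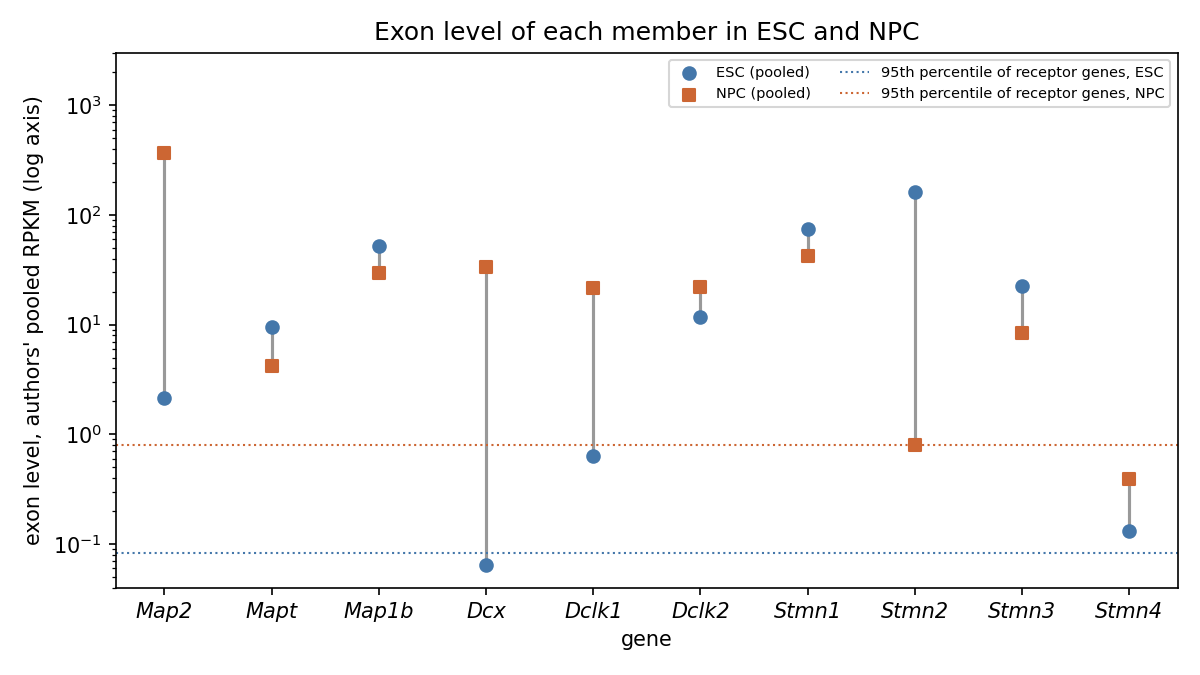
Exon level of the 10 genes in ESC (circles) and NPC (squares), in the authors' pooled RPKM on a log axis; dotted lines give the 95th percentile of 1461 olfactory, vomeronasal and taste receptor genes in each cell type. Map2 (2.14 and 371 RPKM) and Dcx (0.0639 and 33.8) rise far, Stmn2 drops from 160 to 0.792, and the NPC level of Stmn2 lies at the NPC receptor line.

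In the authors' deposited table, 9 of the 10 genes had a mean of at least 1 RPKM and an adjusted p, and all 9 passed an adjusted p of 0.05, 4 higher and 5 lower in NPC. Across the 12509 genes tested there, 66.2% passed, 32.3% higher and 33.9% lower, so a call alone sets these genes little apart. Their median log2 fold change in the authors' deposited table was -0.91, against -0.07 over all tested genes. Stmn4 stayed under 1 RPKM in both cell types (log2 fold change 0.87, adjusted p = 0.706 in the authors' deposited table). Dcx, Dclk1 and Stmn2 were under 1 RPKM in 1 cell type and met the minimum mean only through the other. The filter thus favours a call for these genes.

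The MAP2/tau pair moved in opposite directions. Map2 (Entrez 17756, introns chr1:66222070-66485365 in build mm9) was 174 times higher in NPC, with a log2 fold change of 7.26 and adjusted p = 1.58e-228 in the authors' deposited table. Its NPC level was above that of 99.2% of all named genes. Mapt (Entrez 17762, chr11:104092922-104189285), the tau gene, fell from 9.58 to 4.17 RPKM (log2 fold change -1.32, adjusted p = 4.38e-05 in the authors' deposited table). Mapt made up 81.8% of the summed RPKM of the pair in ESC and 1.11% in NPC. These shares leave out Map4, a broadly expressed gene of the same family at 45.7 RPKM in ESC and 36.1 in NPC, named here after its values were seen. Map1b (Entrez 17755, chr13:100195917-100286258), whose protein stabilises microtubules in growing axons, fell from 52.6 to 29.3 RPKM (-0.97, adjusted p = 6.1e-05 in the authors' deposited table).

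All 3 doublecortin genes rose, by very different amounts. Dcx (Entrez 13193, chrX:140310436-140367439) had a log2 fold change of 8.85 and adjusted p = 2.11e-138 in the authors' deposited table. Its ESC level was within the range of receptor genes of smell, pheromone sensing and taste, which neither cell type is known to use: 10.3% of 1461 such genes were at or above it, so the size of its fold is not exact. As a log2 ratio of RPKM + 1, Dcx was at 5.03, Map2 at 6.89 and Stmn2 at -6.49. Dclk1 (Entrez 13175, chr3:55046674-55320794), a doublecortin-domain kinase, rose by 4.94 on the log2 scale (adjusted p = 1.73e-73 in the authors' deposited table). Dclk2 (Entrez 70762, chr3:86591335-86723671), its close relative, rose by 0.81 (adjusted p = 0.0125 in the authors' deposited table), and it no longer passes at a threshold of 0.01. Dclk2 gave 94.4% of the summed RPKM of the 3 genes in ESC, while in NPC Dcx gave 43.6%, Dclk2 28.5% and Dclk1 27.9% of a sum that went from 12.4 to 77.5 RPKM.

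Among the stathmins, Stmn1, Stmn2 and Stmn3 fell. Stmn2 (Entrez 20257, chr3:8509631-8560265) was above 96.6% of all named genes in ESC and fell by 7.60 on the log2 scale (adjusted p = 6.78e-20 in the authors' deposited table). Its NPC level, 0.792 RPKM, was reached or passed by 5.34% of the receptor genes, whose 95th percentile in NPC was 0.797 and whose median was 0.279. Stmn4 (Entrez 56471, chr14:66963249-66979911) lay deeper in that range, with 31.5% of the receptor genes at or above it in NPC. Stmn1 (Entrez 16765, chr4:134024345-134029246) fell 1.75-fold in RPKM (log2 fold change -0.91, adjusted p = 0.00227 in the authors' deposited table). Stmn3 (Entrez 20262, chr2:181041529-181048898) fell 2.67-fold in RPKM (-1.54, adjusted p = 0.000237 in the authors' deposited table). The summed RPKM of the 4 stathmins went from 258 to 52.3, and the share of Stmn2 in it from 62.3% to 1.52%, which left Stmn1 with 81.6%.

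**Figure D2:**
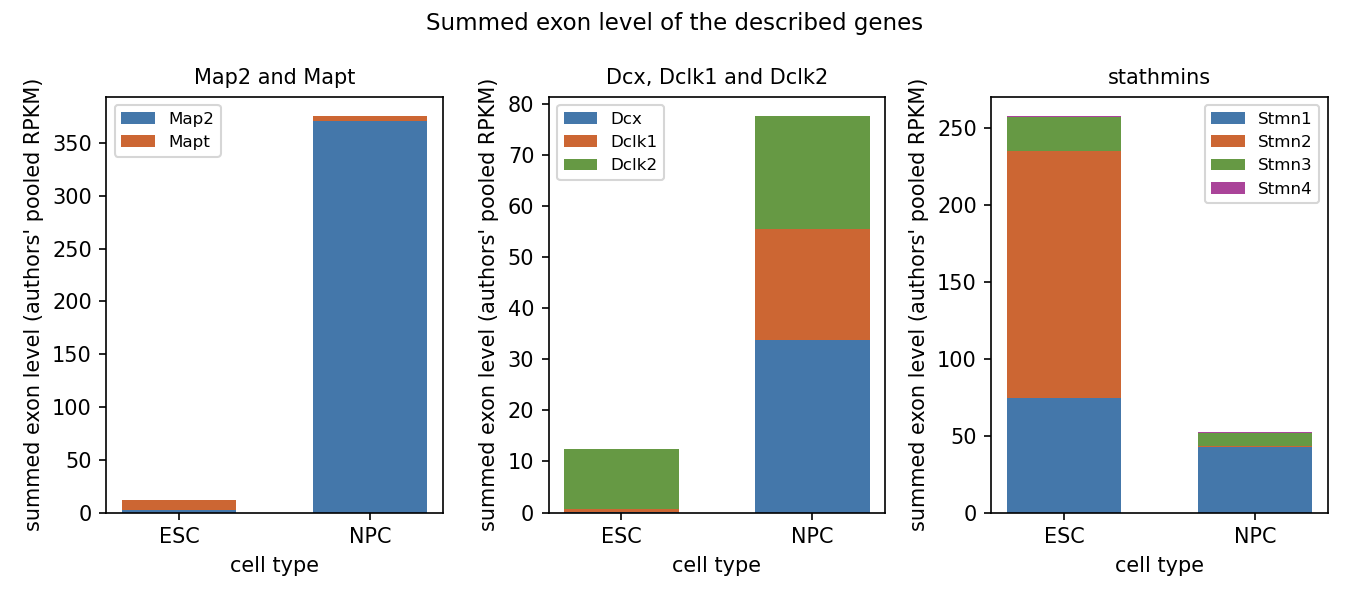
Summed exon level of Map2 and Mapt, of the 3 doublecortin genes and of the 4 stathmins in ESC and NPC, in the authors' pooled RPKM, stacked by gene; other genes of these families are left out. Map2 makes up nearly the whole NPC bar of its pair (371 of 375 RPKM), Dclk2 gives 94.4% of the doublecortin bar in ESC and 28.5% in NPC, and Stmn2 gives 62.3% and 1.52% of the stathmin bar.

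Reads in introns are commonly read as a mark of unspliced transcripts, though they can have other sources, and intron levels were deposited for each biological replicate. The columns differ in the level of genes that should be silent, so this is given first. The median of 240 receptor genes was 0.0287 and 0 RPKM in ESC replicates 1 and 2, but 0.748 in NPC replicate 1 and 0.0825 in NPC replicate 2. An intron level near 0.748 in NPC replicate 1 is therefore the level of a receptor gene. Values are given below in the order ESC 1, ESC 2, NPC 1 and NPC 2, with whole reads recovered from the steps of the deposited values. Since cells were not separated, fewer cells of a type and less RNA per cell cannot be told apart.

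Map2 introns stood at 0.169, 0.101, 4.07 and 9.35 RPKM, from 163, 110, 3952 and 8121 reads in 167 kb of intron. Both NPC replicates were far above both ESC replicates, and 1 and 0 of the 240 receptor genes reached them. Mapt introns stood at 1.08, 1.15, 0.623 and 0.230 RPKM, so both NPC replicates were lower, and NPC replicate 1 lay below the receptor median of its column. Map1b introns stood at 2.35, 2.72, 0.975 and 0.643 RPKM. The ESC replicates of Map1b were higher than both NPC replicates, of which replicate 1 was 0.227 RPKM above the receptor median and replicate 2 was 0.561 above it. Of the 240 receptor genes, 63 and 3 reached these NPC values of Map1b.

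Dcx introns stood at 0.0463, 0, 1.17 and 0.491 RPKM, from 15, 0, 380 and 143 reads. The 0 reads of ESC replicate 2 allow up to 0.00822 RPKM (3 reads over 56.2 kb, counting error only). Above the receptor median of each column, the NPC replicates of Dcx were at 0.420 and 0.408 RPKM. Of the 240 receptor genes, 32 and 9 reached the NPC values of Dcx. Whether the receptor median adds equally to every gene was not tested. Dclk1 introns stood at 0.203, 0.164, 1.14 and 0.649 RPKM, with NPC above ESC in each replicate and 0.395 and 0.567 RPKM above the receptor medians of NPC. The NPC values of Dclk1 were reached by 38 and 3 receptor genes. Dclk2 introns stood at 0.974, 1.07, 1.73 and 2.81 RPKM, where the NPC replicates were again the higher ones. Above the receptor median, NPC replicate 1 of Dclk2 was at 0.979 and ESC replicate 2 at 1.07 RPKM, so the cell types then overlapped. The deposited start of Dclk2, 86597835, lies within its own intron span near the 3′ end of the gene on the minus strand.

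Stmn1 introns stood at 47.1, 49.1, 2.82 and 5.49 RPKM in 4.46 kb of intron, and both NPC replicates were far below ESC. Stmn2 introns stood at 9.04, 8.76, 0.974 and 0.183 RPKM, from 2145, 2341, 232 and 39 reads. Of the 240 receptor genes, 63 reached the Stmn2 value in NPC replicate 1 and 51 in NPC replicate 2. Stmn3 introns stood at 1.03, 1.00, 1.03 and 0.447 RPKM and Stmn4 introns at 0.119, 0.00960, 0.916 and 0.0842, and for both genes the cell types overlapped. In the other 8 genes they did not, which is also true of 70.7% of all named genes.

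**Figure D3:**
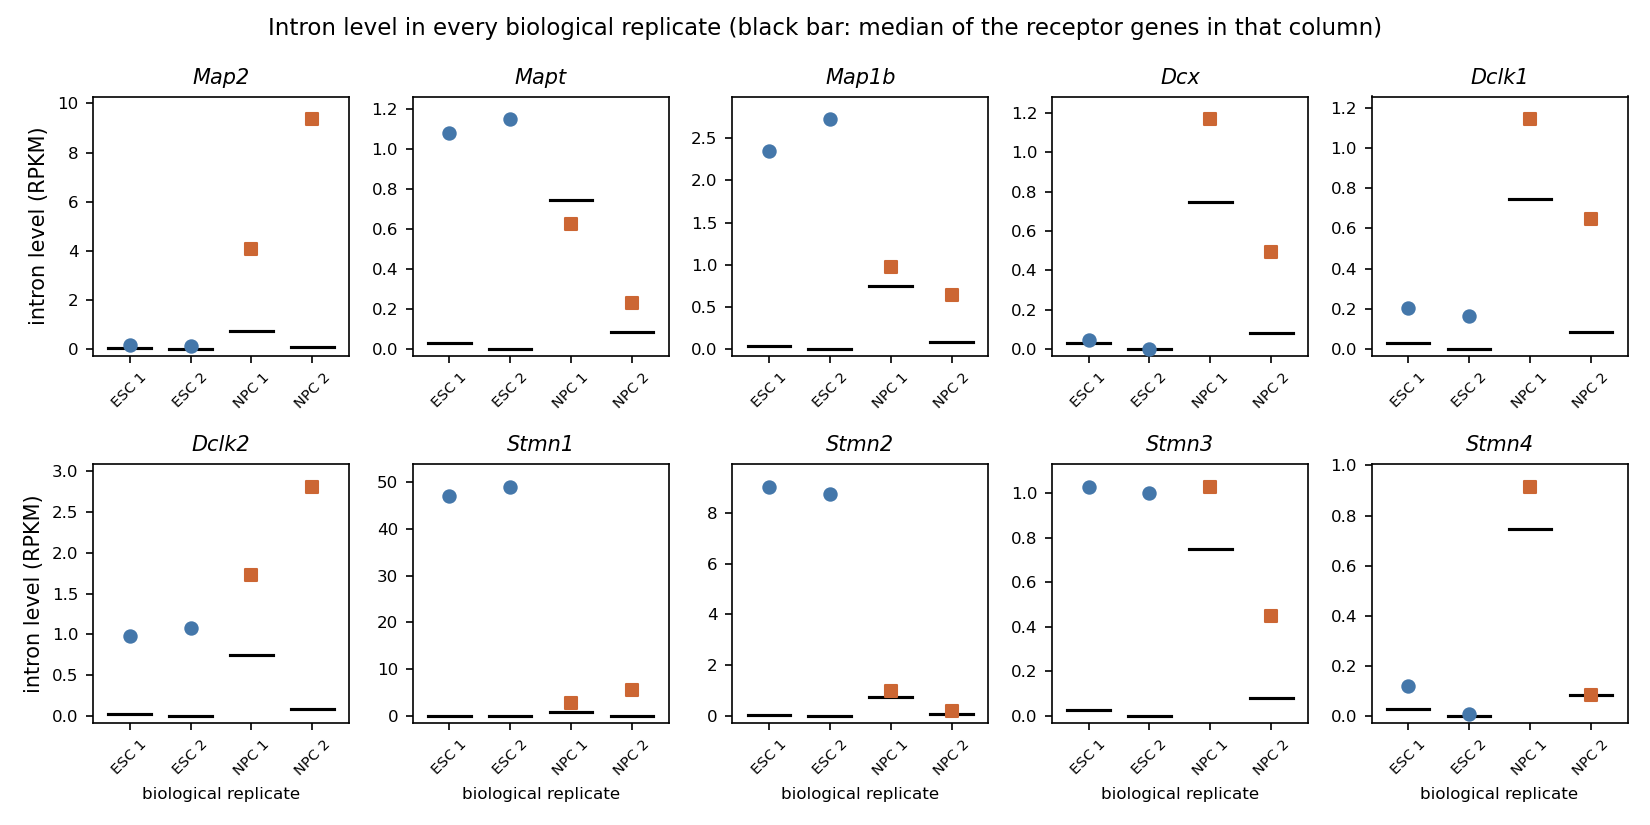
Intron level of each gene in RPKM in the 2 ESC replicates (circles) and the 2 NPC replicates (squares), on a linear axis scaled to each gene; the black bar is the median of 240 receptor genes in that replicate. Map2, Dcx and Dclk1 lie above the bar in both NPC replicates, though 32 and 38 of the receptor genes reached Dcx and Dclk1 in NPC replicate 1. Mapt, Map1b, Stmn2, Stmn3 and Stmn4 lie close to the bar or below it in at least 1 NPC replicate.

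A mean of at least 1 RPKM over the 4 columns was asked for the intron test, and 5 of the 10 genes met it: Map2, Map1b, Dclk2, Stmn1 and Stmn2. Map2, Map1b and Stmn2 had a mean under 1 RPKM in their lower cell type and met it only through the other. The filter thus favours a call for them. In limma on log2(RPKM + 1), a scale that understates the change of low genes, all 5 passed an adjusted p of 0.05, against 47.3% of 8811 tested genes (13.2% higher and 34.0% lower in NPC). Map2 rose from 0.135 ± 0.0479 to 6.71 ± 3.73 RPKM (SD, n = 2 each; limma log2 fold change 2.68, SE 0.286, adjusted p = 5.07e-05). Dclk2 rose from 1.02 ± 0.0711 to 2.27 ± 0.766 RPKM (SD, n = 2 each; limma log2 fold change 0.67, SE 0.206, adjusted p = 0.0193). Stmn1 fell from 48.1 ± 1.38 to 4.15 ± 1.88 RPKM (SD, n = 2 each; limma log2 fold change -3.30, SE 0.692, adjusted p = 0.00251). Stmn2 fell from 8.90 ± 0.203 to 0.578 ± 0.559 RPKM (SD, n = 2 each; limma log2 fold change -2.70, SE 0.289, adjusted p = 5.11e-05). Map1b fell from 2.54 ± 0.265 to 0.809 ± 0.235 RPKM (SD, n = 2 each; limma log2 fold change -0.97, SE 0.190, adjusted p = 0.00167).

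The calls of Dclk2, Stmn1 and Map1b rest on particular settings. The median log2 fold change of all tested genes was -0.43, and when each column was centred on its median it was -0.04 and the share of calls higher in NPC went from 28.0% to 50.2%. Relative to that centre Map1b was at -0.57 (limma adjusted p = 0.107), while Map2, Dclk2, Stmn1 and Stmn2 kept their calls. Of the 8811 tested genes 4350 passed in the centred fit. With the receptor median subtracted from each column, Dclk2 was at 0.44 (limma adjusted p = 0.434), the other 4 kept their calls, 31.0% of all tested genes passed, and 18.6% of those calls were higher in NPC. Dclk2 and Stmn1 lost their calls without ESC replicate 1 and also without ESC replicate 2. Calls over all genes became far fewer in these fits too, so the loss is not particular to these genes. The fold changes hardly moved, at 0.64 and 0.71 for Dclk2 and -3.33 and -3.27 for Stmn1, while the SE of Stmn1 went from 0.692 to 1.88 in both fits.

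With no filter on low values the other 5 genes could be tested too. In that limma fit 20.5% of 18393 genes passed, and Dcx (0.81, adjusted p = 0.0715), Dclk1 (0.67, adjusted p = 0.0779), Mapt (-0.58, adjusted p = 0.0976), Stmn3 (-0.24, adjusted p = 0.434) and Stmn4 (0.44, adjusted p = 0.360) did not. With the receptor median subtracted and no filter, a setting chosen after the values were seen in which 10.7% of 18076 genes passed, Dcx rose (0.49, limma adjusted p = 0.0358) and Mapt fell (-0.97, limma adjusted p = 0.0362). Dclk1 (0.34, limma adjusted p = 0.202), Stmn3 (-0.60, limma adjusted p = 0.163) and Stmn4 (0.04, limma adjusted p = 0.767) did not pass there. With a mean of at least 0.5 RPKM, where 42.5% of 11496 genes passed, Dclk1 (limma adjusted p = 0.0489) and Mapt (limma adjusted p = 0.0492) passed narrowly.

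Exons and introns of each tested gene moved in the same direction, but not equally far. For this comparison introns were taken from limma voom on recovered reads, which needs no added constant on RPKM. The log2 fold change of Stmn1 was -0.91 on exons and -3.59 on introns (voom SE 0.418, adjusted p = 0.00199), a fall of 1.75-fold in exon RPKM and 11.6-fold in mean intron RPKM. Only 0.943% of the 8380 genes tested in both tables had a lower difference of intron minus exon change than its -2.68. The median difference over those genes was -0.36, and the 5th percentile was -1.83. Stmn1 has 2 pseudogenes named for it in RefSeq, and the treatment of reads shared with such copies is unknown here, so its exon level is uncertain. Stmn2 was at the other end, at -7.60 on exons and -4.34 on introns (voom SE 0.740, adjusted p = 0.00458), with 98.7% of genes having a lower difference. Its intron level in NPC was near that of the receptor genes as described above. Map2 was at 7.26 on exons and 5.60 on introns (voom SE 0.528, adjusted p = 0.00197), and 6.99% of genes had a lower difference. Map1b was at -0.97 and -1.65 (voom adjusted p = 0.0107) and Dclk2 at 0.81 and 1.14 (voom adjusted p = 0.0425), with 34.5% and 81.0% of genes having a lower difference. Exon values have no replicates, so none of these differences could be tested.

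**Figure D4:**
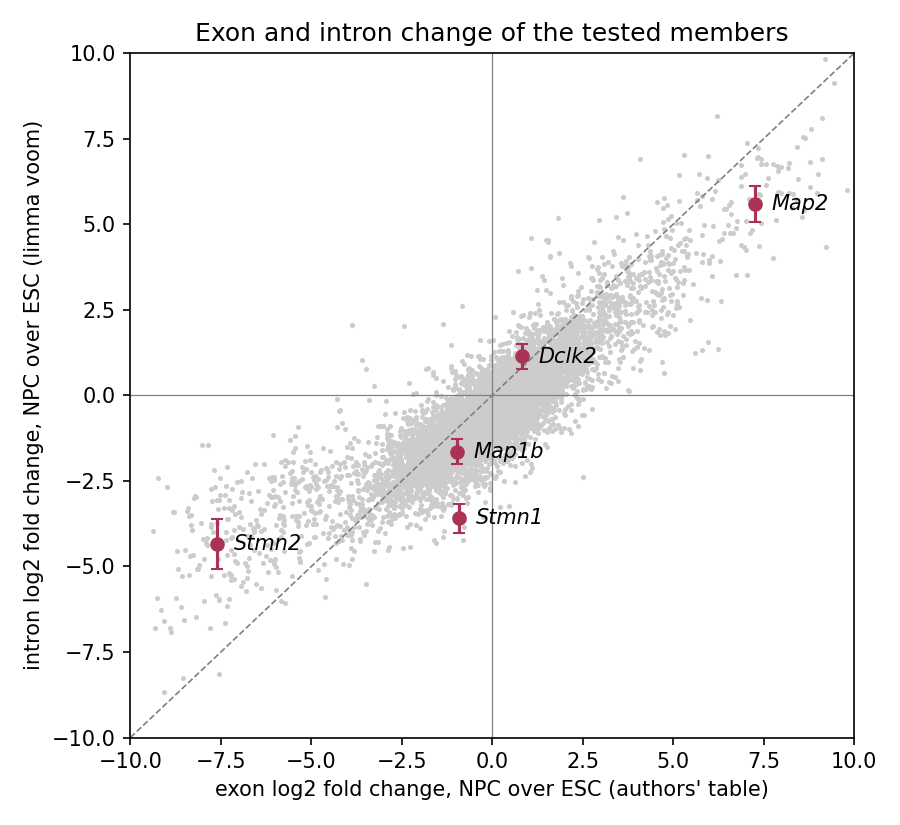
Log2 fold change of NPC over ESC on exons (authors' table) against introns (limma voom on recovered reads) for the 5 tested genes, with SE bars on the intron axis; grey points are all 8380 genes tested in both and the dashed line marks equal change. Stmn1 lies well below the line (-0.91 and -3.59), Stmn2 above it (-7.60 and -4.34).

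Some genes overlap the whole span of these genes in RefSeq: 4 noncoding or pseudogene entries overlap Map2, 3 overlap Dclk1 and 1 each Mapt and Dclk2. Whether these entries lie over introns or exons was not examined. Counting is not stated to use strand, so their reads cannot be told apart from those of the host genes.

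Genes with the most similar pair of exon levels were found as the nearest of all tested genes in log2(RPKM + 0.1) of ESC and NPC, a likeness over only 2 pooled values. For Map2 these were Tmem176b (2.39 and 353 RPKM), Nrep (2.32 and 322) and Wscd1 (1.83 and 279). For Dcx they were Pde1c (0.0920 and 30.3 RPKM), Ndp (0.0911 and 27.9) and Epha5 (0.0585 and 26.2). For Stmn2 they were Dusp27 (174 and 0.863 RPKM), Pramel7 (140 and 0.742) and Ooep (170 and 0.670).

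Neuronal markers did not rise with Map2 and Dcx as a list. For the exon counts of this paragraph, 32.3% of all tested genes rose and 33.9% fell (median log2 fold change -0.07). Of 14 tested in the authors' deposited table, 2 rose, the synaptic vesicle protein gene Syp (2.89 and 11.7 RPKM) and the enolase gene Eno2 (4.67 and 10.3), and 10 fell (median log2 fold change -2.34). Neurofilament genes were among those that fell, Nefl from 33.4 to 0.795 RPKM and Nefh from 34.99 to 0.436. Of the 24 listed genes 23 were found on exons, and their summed RPKM went from 268 in ESC to 105 in NPC. None of the 23 was at exactly 0 in NPC, but 15 were below 1 RPKM there, and 9 were in ESC. Rbfox3, the marker of mature neurons, was below 1 RPKM in both, at 0.0918 in ESC and 0.145 in NPC. All 24 were found on introns, with a summed intron RPKM of 17.5 and 16.8 in ESC and 22.8 and 6.91 in NPC, where as many genes at the receptor median would sum to 17.9 and 1.98 RPKM. All 11 tested neural progenitor markers rose (summed RPKM 485 and 14879) and all 9 tested pluripotency markers fell (6003 and 20.2). Of 8 tested astrocyte markers 7 rose and none fell (summed RPKM 15.8 and 1755), and of 4 tested oligodendrocyte lineage markers 2 rose and 1 fell (29.7 and 272). Fibroblast markers, which the feeder cells express, summed to 184 RPKM in ESC and 35.2 in NPC, with 1 of 13 higher and 8 lower. In ESC 1 of the 13 was below 1 RPKM, and in NPC 7 were. Their part in the ESC levels of the stathmins and Map1b was not tested.

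Other genes of microtubule regulation changed in both directions in the authors' deposited table. Of all tested genes there, 32.3% rose and 33.9% fell (median -0.07), and no list was tested against these shares. Of 17 other microtubule-associated proteins 6 rose and 6 fell (median log2 fold change -0.36), where the paralogs Mid1 (120 and 3.59 RPKM) and Mid2 (0.172 and 16.8), whose proteins bind microtubules as ubiquitin ligases, went opposite ways. Of 22 proteins of microtubule plus and minus ends 12 rose and 2 fell (median 0.89). Nav3, a plus-end protein, went from 0.166 to 31.7 RPKM and Clip3 from 3.16 to 50.7, while Camsap3, which caps minus ends in epithelia, went from 33.5 to 0.419. Of 8 Lis1 and dynein regulators 5 rose and none fell (median 0.57), with the dynein adaptors Bicd1 (5.29 and 12.2 RPKM) and Bicd2 (17.0 and 37.7) in front. Of 7 severing enzymes 4 rose and 3 fell (median 0.97). Katnal1, a katanin-like enzyme, went from 2.38 to 21.8 RPKM and Fignl1 from 79.0 to 24.4.

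Kinases and phosphatases that act on these proteins rose in 12 of 24 cases and fell in 5 (median 0.52) in the authors' deposited table. Beside these and the counts that follow stand the same 32.3% higher and 33.9% lower of all tested genes. Mapk10, a JNK kinase of neural cells, went from 0.136 to 6.09 RPKM, and the phosphatase subunits Ppp2r2b and Ppp2r2c went opposite ways (0.233 and 36.4, and 25.9 and 0.595). Of 23 enzymes that modify or fold tubulin 8 rose and 5 fell (median 0.18), with Ttll7, which adds glutamate to tubulin, at 0.304 and 18.1 RPKM and the detyrosinating enzyme Vash1 at 4.69 and 67.1. Of 13 regulators of neuronal genes 5 rose and 7 fell (median -0.66). Myt1, a zinc finger factor, went from 0.133 to 15.5 RPKM, while the RNA-binding genes Celf4 and Elavl2 fell from 9.40 to 0.767 and from 7.07 to 0.971. Celf4, Elavl3 and Elavl4 stand in the list of neuronal markers as well. None of the 5 other doublecortin-domain genes in the table reached a mean of 1 RPKM.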

How the data were processed

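Genes and lists were chosen with earlier results of these data known. Exon RPKM, pooled by the authors per cell type, came with the authors' deposited log2 fold change (NPC relative to ESC) and its adjusted p-value. The submitters' processing notes name DESeq2 1.10.0 and build mm9, with the aligner, read counter and annotation not given in the sources used here. Exon calls used a threshold of 0.05 and, as on introns, a minimum mean of 1 RPKM; genes without an adjusted p stayed out.

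Deposited intron values, 1 column per biological replicate, name no unit in the header. They were read as RPKM because they resolve into whole reads, within 0.001 reads, in each of the 18447 genes above 0. The column denominators are 5767704, 6500767, 5792056 and 5186790 reads (ESC 1, ESC 2, NPC 1, NPC 2), and recovered reads sum to 6215905, 7002634, 6130041 and 5536918 over genes. For Map1b 4 intron lengths were possible, and the largest that fits its span was taken. The test was limma (3.58.1, R 4.3.3) on log2(RPKM + 1), with a mean-variance trend and Benjamini-Hochberg adjustment over every tested gene, and the script was tested on simulated data. Standard deviations are over 2 replicates. Alternatives changed the pseudocount, filter, variance model, scaling, replicate block, replicates and test; subtraction of the receptor median was added after the values were seen. Besides the 10 genes, the text names at most 2 called genes per direction and list with the largest deposited fold change, and 3 nearest genes for some members. Rbfox3 was named after its value was seen.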

Additional observations from a re-analysis of the deposited data

How the results depend on the processing

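No direction reversed in any alternative that was run, for the 5 genes tested on introns (70 values, of which 10 lost their call) or for the 10 exon fold changes recomputed as log2 ratios of RPKM + 1 and RPKM + 0.1 (20 values). Most of these settings could not reverse a direction. The filter, variance trend and replicate block left the intron fold changes as they were. Another pseudocount or a left-out replicate cannot reverse genes whose replicates do not overlap. On exons an added constant keeps the order of the pooled levels. On exons 9 of these genes passed, against 66.2% of all tested genes, and 9 with no filter. At a minimum mean of 10 RPKM 8 passed, as Mapt fell under that mean, and at an adjusted p of 0.01 8 passed, as Dclk2 did not. Over all genes the exon calls were 8277 of 12509 tested, and 7214 at an adjusted p of 0.01. The exon calls were 9080 with no filter and 5473 at a minimum mean of 10 RPKM. How many genes were tested in those settings is not given here, so these genes cannot be set beside a share there. On introns limma called 4165 genes, and 2728 or 1934 with the receptor median subtracted, with the filter or with none. Leaving out 1 replicate gave between 1594 and 6574 calls, and 3 to 5 of these genes. The 3 were Map2, Map1b and Stmn2, without ESC replicate 1 and without ESC replicate 2 alike, where only the NPC replicates inform the spread and the single ESC sample is taken to vary as they do. Dclk2 also lost its call with no filter (limma adjusted p = 0.0823) and without the mean-variance trend (0.0891), and Map1b with the receptor median subtracted and no filter (0.0507). A replicate block gave 3777 calls and the same 5 genes called; deviations of same-numbered samples had a correlation of 0.02 across genes, so the numbers were not taken as pairs. Intron reads were few for Dcx in ESC (15 and 0), for Stmn4 in ESC (11 and 1) and NPC replicate 2 (7), and for Stmn3 (16 to 45).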
